A study of Mus musculus with 25 samples.

Results

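Expression of 10 genes of NAD salvage and of the Preiss-Handler route was described in mouse liver: Nampt, Nmnat1, Nmnat3, Naprt, Nadsyn1, Nmrk1, Nt5e, Pnp, Nadk and Nadk2. The genes were taken by symbol from the 41388 features counted, 9 of them through the symbol of their Ensembl identifier and Pnp through the position of its exons. All 10 passed the filter on low counts, which kept 14065 genes with more than 1 CPM (the counts of a gene scaled to a common library total) in at least 2 libraries. None of the 10 shared exonic bases with another counted feature.

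In GRCm38 the salvage genes lie at chr12:32820335-32853369 (Nampt, 11 exon blocks), chr4:149467572-149485202 (Nmnat1, 5 blocks) and chr9:98287435-98420438 (Nmnat3, 8 blocks). The Preiss-Handler genes lie at chr15:75890964-75894481 (Naprt, 13 blocks) and chr7:143795584-143822849 (Nadsyn1, 21 blocks). The nucleoside enzymes lie at chr19:18631950-18652194 (Nmrk1, 10 blocks), chr9:88327197-88372092 (Nt5e, 8 blocks) and, for Pnp, at chr14:50944303-50953412 in RefSeq, and the kinases at chr4:155562378-155591001 (Nadk, 15 blocks) and chr15:9071260-9110487 (Nadk2, 12 blocks). The row counted here as Pnp spans chr14:50944302-50965237 in 8 blocks. Its 3085 bases all lie in exons of Pnp in GENCODE M21, 143 of them past the RefSeq end, and that annotation gives the row's identifier the name Gm49342, an overlapping locus.

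NAD is rebuilt in hepatocytes mainly from nicotinamide, which NAMPT converts to nicotinamide mononucleotide (NMN) in the rate-limiting step of salvage, and the NMNAT enzymes then join NMN to adenylate to give NAD. The Preiss-Handler route starts from nicotinic acid through NAPRT and ends with NADSYN1, while nicotinamide riboside enters through the kinase NMRK1 or is cleaved by the phosphorylase PNP. NT5E (CD73) is a cell-surface nucleotidase that releases nucleosides, and the kinases NADK in the cytosol and NADK2 in mitochondria turn NAD into NADP.

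Livers came from male C57B/6J mice aged 20 weeks, littermates that carried floxed Sirt1 (WT) or also Albumin-Cre, which deletes Sirt1 in hepatocytes (SIRT1 LKO), and every mouse received an adeno-associated virus of serotype 8 (AAV8). The virus was empty (EV) or carried NAMPT behind the hepatocyte promoter of thyroxine binding globulin, and the diet was chow or a Western diet (WD) for 12 weeks. The 25 libraries, 1 per liver, comprised 3 of chow WT EV, 6 of WD WT EV, 6 of WD WT NAMPT, 5 of WD LKO EV and 5 of WD LKO NAMPT. The titles name the insert NAMPT and the treatment note names it SIRT1, and the titles were followed here. Whether the AAV8 insert was the mouse sequence is not given in the sources used here, so reads from the vector and from the mouse Nampt gene cannot be told apart.

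Libraries held between 20166175 and 32937326 counts. Sirt1, the targeted gene, had a mean CPM of 8.86 ± 0.573 among the 6 WD WT EV libraries. The 5 labelled WD LKO EV had 8.57 ± 1.34, and the NAMPT groups had 8.58 ± 0.617 (WT, 6 libraries) and 9.82 ± 1.36 (LKO, 5 libraries; errors are SD). Sirt1 in the libraries labelled LKO differed from WT by -0.07 with the empty vector (log2, 95% confidence interval -0.28 to 0.14, adjusted p = 0.99) and by 0.19 with NAMPT (-0.03 to 0.41, adjusted p = 0.237), both within the error, and since the counts sum all exons they do not check the loss of a few of them. LKO below means labelled LKO. The hepatocyte markers Alb, Apoa1, Ttr, Cps1, Hnf4a and Cyp2e1 summed to between 44883 and 76916 CPM per library. Libraries 1, 2 and 3 of WD WT NAMPT stood apart, with summed monocyte and macrophage markers (Cd68, Itgam, Ccr2, Lyz2, Trem2 and Gpnmb) of 382, 465 and 333 CPM against at most 276 in any library of the other groups. In whole liver, fewer cells of a type and less RNA per cell cannot be told apart.

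The reference promoters of 3 of the genes are shown because they carry the largest diet difference (Pnp), the vector's own gene (Nampt) and the only E-box found (Nadk). Each runs from 250 bases before to 50 bases after a RefSeq start (GRCm38.p6, plus strand), and capitals mark CACGTG, the palindromic E-box read by the clock factors CLOCK and BMAL1.
Nampt, chr12:32820085-32820384: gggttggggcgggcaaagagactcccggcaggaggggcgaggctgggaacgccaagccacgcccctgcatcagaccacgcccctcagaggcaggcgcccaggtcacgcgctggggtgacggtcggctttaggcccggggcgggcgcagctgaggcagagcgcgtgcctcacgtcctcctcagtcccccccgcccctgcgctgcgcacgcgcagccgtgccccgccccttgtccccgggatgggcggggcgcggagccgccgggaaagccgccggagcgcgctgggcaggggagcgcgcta
Nadk, chr4:155563565-155563864: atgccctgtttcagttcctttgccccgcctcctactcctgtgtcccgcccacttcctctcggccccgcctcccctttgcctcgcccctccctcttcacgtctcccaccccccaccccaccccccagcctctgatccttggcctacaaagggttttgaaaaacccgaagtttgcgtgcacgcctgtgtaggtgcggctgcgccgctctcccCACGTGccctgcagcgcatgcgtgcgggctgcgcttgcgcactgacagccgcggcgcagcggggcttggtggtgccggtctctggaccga
Pnp, chr14:50944053-50944352: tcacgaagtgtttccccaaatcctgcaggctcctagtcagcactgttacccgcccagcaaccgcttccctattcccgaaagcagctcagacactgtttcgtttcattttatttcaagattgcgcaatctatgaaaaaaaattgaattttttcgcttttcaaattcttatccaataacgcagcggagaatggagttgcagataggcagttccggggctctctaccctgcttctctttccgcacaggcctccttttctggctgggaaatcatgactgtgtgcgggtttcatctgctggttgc
The E-box began 40 bases before the second listed start of Nadk and was absent from the other 9 windows listed for 8 of the 10 genes. CACGTG occurred in 7.15% of all 32851 promoter windows, and the D-box TTATGTAA, searched on both strands, occurred in 0.938% of them and in 0 of the 10. Windows without a match hold no more information than that these letters are not in them.

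The 10 genes covered a wide range of transcript level. Per kilobase of exon, mean levels over the 25 libraries were 59.9 RPKM for Nadk, 36.4 for Naprt, 34.0 for Nadk2 and 19.9 for Pnp. Nampt followed at 12.7 RPKM, Nmnat1 at 5.26, Nadsyn1 at 5.13 and Nmrk1 at 4.26, and Nmnat3 at 1.28 and Nt5e at 1.14 were the lowest. Counts never fell to 0, and the lowest single value was 101 reads for Nmnat3. The spread between mice of a group was largest for Nt5e, Nmrk1 and Nampt, with mean coefficients of variation of 27.4%, 25.7% and 20.1%, and smallest for Nadk at 8.21%. The median over the 10 genes was 12.1%, beside 12.8% over the 8439 kept genes in the same range of mean CPM.

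**Figure D1:**
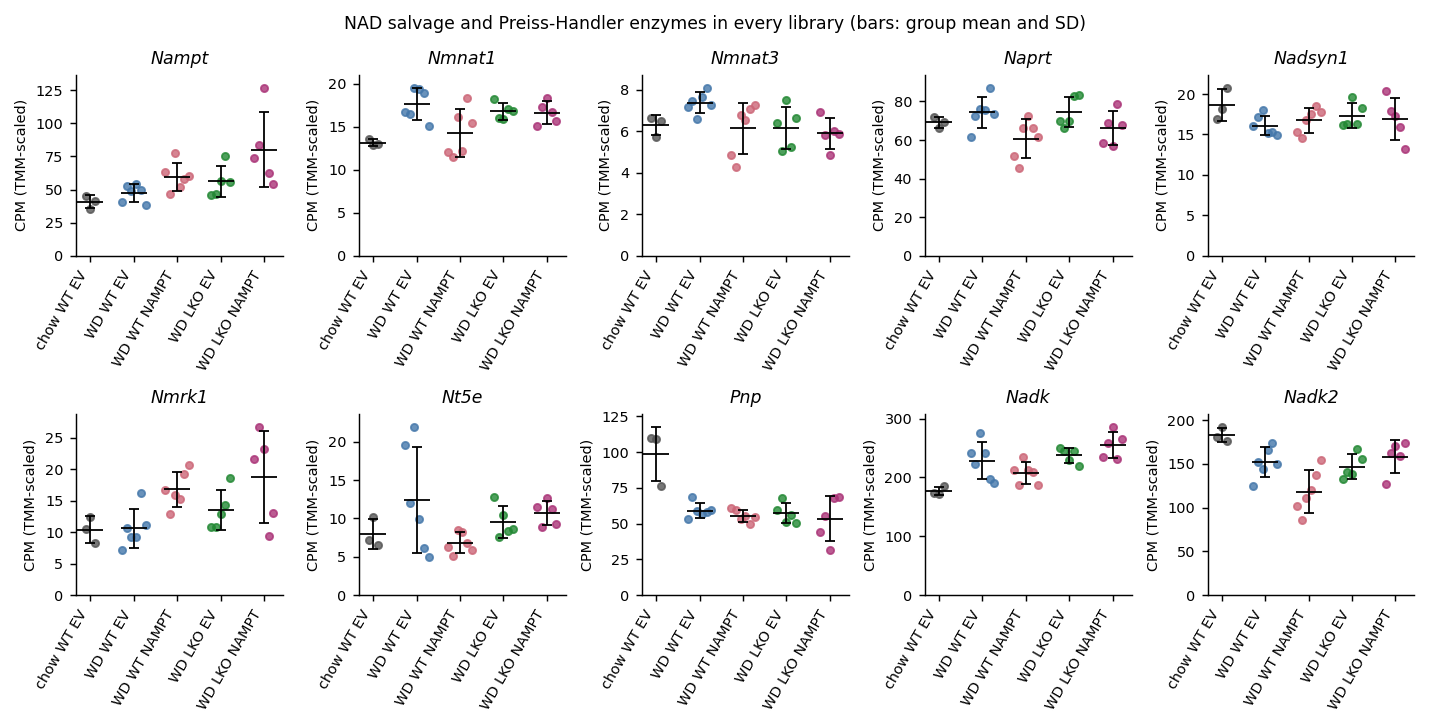
TMM-scaled CPM (vertical axis) of each of the 10 genes in every library (points) of the 5 groups, with group mean and SD (bars). Pnp is high in the 3 chow libraries, Nadk2 is lowest in WD WT NAMPT, and 1 WD LKO NAMPT library reaches 127 CPM for Nampt.

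The diet comparison moved 4 of the 10 genes, more than any other comparison. In WD WT EV against chow WT EV, Nadk and Nmnat1 rose and Pnp and Nadk2 fell, where 22% of all genes tested were called (10.1% higher and 12% lower) and 35.1% had an unadjusted p under 0.05. The libraries of the 2 diets did not overlap for the same 4 genes, against 16.1% of all genes. The NAMPT vector in WT mice lowered Nadk2 and Nmnat1 and raised none of the 10 past the threshold in the limma fit, where 13.4% of all genes were called (7.67% higher and 5.77% lower). At an unadjusted p under 0.05 there were 5 of the 10 for the vector in WT against 30.3% of all genes, and 0 of the 10 had libraries that did not overlap (0.96% of all genes). A list this short was given no test of its own.

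In the libraries labelled LKO, the vector changed 0 of the 10 genes, against 0.00711% of all genes (1 gene). At an unadjusted p under 0.05 there was 1 of the 10, Nampt, against 9.63% of all genes, and 0 were free of overlap (1.15% of all genes). The LKO label changed 0 of the 10 with the empty vector (0.00711% of all genes), with 1 at an unadjusted p under 0.05 (Nmnat3, against 6.33% of all genes) and 0 free of overlap (0.59%). There the log2 differences ran from -0.25 (Nt5e) to 0.36 (Nmrk1), with adjusted p of 0.778 or more. When 1 library was left out, these ran from -0.45 to -0.07 for Nt5e and from 0.25 to 0.46 for Nmrk1. The label changed 1 of the 10 with the NAMPT vector, where Nadk2 was higher (7.96% of all genes, 4.18% higher and 3.78% lower), and 3 of the 10 had an unadjusted p under 0.05 (28.6% of all genes). Averaged over genotypes the vector changed 0 of the 10 (1.79% of all genes, 1.04% higher) with 4 at an unadjusted p under 0.05 (20.9% of all genes). Averaged over vectors the label changed 0 (0.242%) with 2 at an unadjusted p under 0.05 (15.5%). The test of whether the vector's effect differed between genotypes called 0 of the 10 (0.00711% of all genes), with 2 at an unadjusted p under 0.05 (21.2%). The median log2 difference of the 10 genes was 0.18 for diet (all genes 0.00), -0.17 for the vector in WT (all genes 0.00), 0.04 for the vector in LKO (all genes 0.02) and 0.18 for LKO against WT under NAMPT (all genes -0.01). Other tools changed several of these counts: edgeR's quasi-likelihood test called 0 of the 10 for the vector in WT, where it called 3.04% of all genes, and DESeq2 called 3 (Nadk2 and Nt5e lower, Nmrk1 higher), where it called 8.49%.

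**Figure D2:**
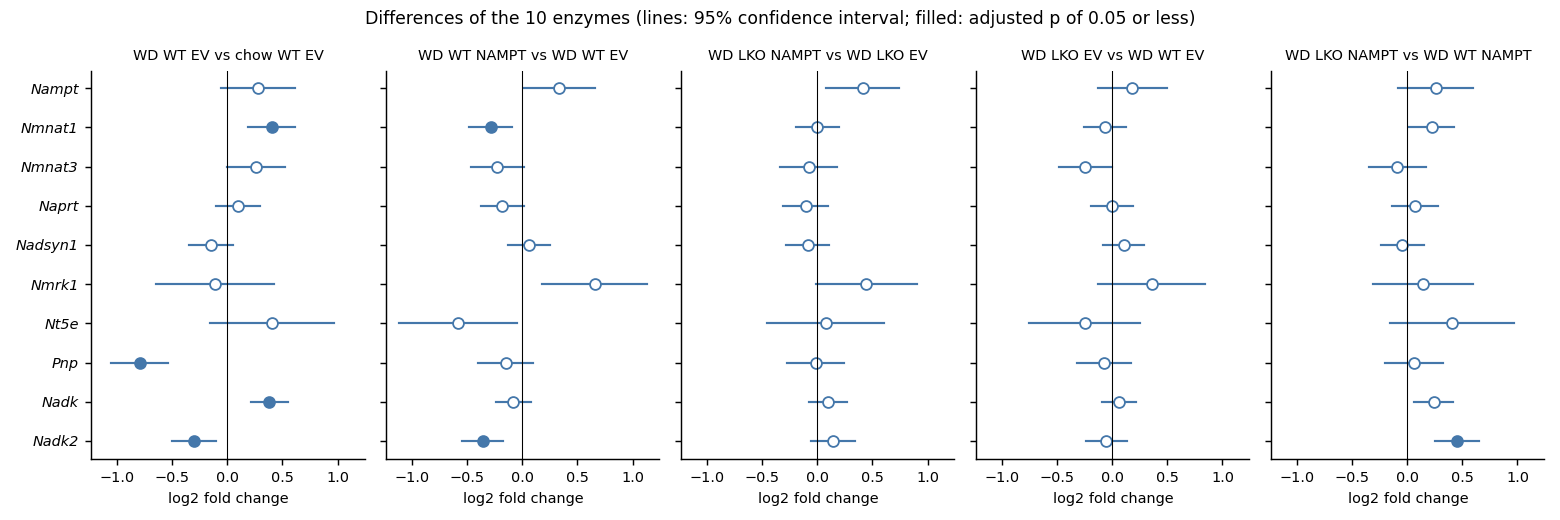
Log2 fold change (horizontal axis) of each gene in 5 comparisons, with its 95% confidence interval (lines), from the limma fit of all 25 libraries; filled points had an adjusted p of 0.05 or less. Filled points are Nmnat1, Pnp, Nadk and Nadk2 for diet, Nmnat1 and Nadk2 for the vector in WT, and Nadk2 for LKO against WT under NAMPT.

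Nampt encodes the enzyme the vector was made to supply, so its level was examined first. In chow WT EV it was at 45.3, 35.5 and 41.4 CPM. In WD WT EV it ran from 38.3 through a median of 49.2 to 54.1, and in WD WT NAMPT from 46.8 through 58.8 to 77.8. The 5 libraries of WD LKO EV held 46.0, 46.7, 56.5, 75.6 and 55.7 CPM, and the 5 of WD LKO NAMPT held 73.6, 83.5, 127, 62.1 and 53.9. Vector and control libraries overlapped in both genotypes, and library 3 of WD LKO NAMPT was the highest of all 25.

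Nampt was 0.34 ± 0.16 (log2, SE) higher with the vector in WT, a fold of 1.26 (95% confidence interval of the log2 difference 0.02 to 0.66, adjusted p = 0.144). In LKO it was 0.41 ± 0.16 higher, a fold of 1.33 (0.08 to 0.74, adjusted p = 0.403), and the 2 effects differed by 0.08 ± 0.22 (-0.39 to 0.54, adjusted p = 0.868). Averaged over genotypes the difference was 0.37 ± 0.11 (0.14 to 0.61, adjusted p = 0.0648). Leaving out 1 library gave 0.20 (without library 3 of WD WT NAMPT) to 0.48 (without library 4) for the WT difference, which did not pass in any of the 12 such fits. The average passed the threshold without library 4, 5 or 6 of WD WT NAMPT or library 5 of WD LKO NAMPT, at log2 differences of 0.44, 0.40, 0.39 and 0.43. With sequencing depth alone in place of TMM factors, Nampt in WT was 0.50 higher (adjusted p = 0.0316). Diet changed Nampt by 0.28 ± 0.16 (-0.06 to 0.61, adjusted p = 0.234), which ran from 0.15 (without chow library 2, adjusted p = 0.776) to 0.32 (without chow library 1) when 1 library was left out. In the order of group means, chow WT EV at 40.7 CPM lay below WD WT EV at 47.4 by slightly more than the larger SD, and the neighbours among the 4 WD groups did not differ beyond their spread.

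Nmnat1 and Nmnat3, the nuclear and the mitochondrial adenylyltransferase, stand next in the route. Nmnat1 was at 13.6, 12.95 and 13.02 CPM in chow WT EV and ran from 15.1 through 17.9 to 19.5 in WD WT EV, with no overlap. It rose by 0.40 ± 0.10 (fold 1.32, adjusted p = 0.00761) with the diet. In WD WT NAMPT it ran from 11.6 through 13.9 to 18.4, and 3 of the 6 libraries (1, 2 and 4, at 12.1, 11.6 and 12.2) lay below every chow library. Nmnat1 fell by 0.29 on the log2 scale (SE 0.10, fold 0.819, adjusted p = 0.047) with the vector in WT.

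The vector call on Nmnat1 was narrow and stood in 2 of 14 other settings (-0.34 to -0.07). It was lost when any of libraries 1, 2, 4, 6 or 7 of WD WT EV or libraries 1, 2, 3 or 4 of WD WT NAMPT was left out, with log2 differences of -0.34 to -0.18 over the 12 such fits. Without libraries 1, 2 and 3 of WD WT NAMPT the difference was -0.07 (adjusted p = 0.749). The diet call was lost without chow library 1 (0.43, adjusted p = 0.079) or 2 (0.39, adjusted p = 0.13). In WD LKO EV Nmnat1 was at 18.3, 15.99, 15.9, 17.05 and 16.8 CPM and in WD LKO NAMPT at 15.1, 17.4, 18.4, 16.8 and 15.7, a log2 difference of 0.00 ± 0.10 (-0.20 to 0.20).

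Nmnat3 stayed low throughout, between 4.29 and 8.10 CPM. It ran from 6.59 to 8.10 in WD WT EV and from 4.29 to 7.27 in WD WT NAMPT, a difference of -0.23 ± 0.12 (adjusted p = 0.186), and libraries 1 and 2 of WD WT NAMPT held the lowest values of these 12, 4.89 and 4.29. With diet the difference was 0.26 ± 0.13 (adjusted p = 0.147) and between LKO and WT under EV it was -0.24 ± 0.12 (adjusted p = 0.778). Leaving out 1 library gave 0.17 to 0.28 for diet and -0.35 to -0.16 for LKO against WT. Other settings gave 0.04 to 0.32 for diet.

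The Preiss-Handler pair showed no call in any comparison of the limma fit. The exception among the alternatives was Naprt with the clock score as covariate, at -0.27 with the vector in WT (adjusted p = 0.0422). Naprt, the nicotinic acid phosphoribosyltransferase, averaged 69.2 ± 2.85 CPM (SD, n = 3) in chow WT EV, 74.3 ± 8.24 (n = 6) in WD WT EV, 60.7 ± 10.04 (n = 6) in WD WT NAMPT, 74.6 ± 7.96 (n = 5) in WD LKO EV and 66.1 ± 8.70 (n = 5) in WD LKO NAMPT. Its vector difference was -0.18 ± 0.09 in WT (-0.38 to 0.01, adjusted p = 0.195) and -0.11 ± 0.10 in LKO (-0.31 to 0.10, adjusted p = 0.777). Leaving out 1 library gave -0.25 to -0.13 in WT and -0.16 to -0.06 in LKO. Nadsyn1, the NAD synthetase of the last step, had the flattest profile of the 10, with group means from 16.1 to 18.6 CPM, a ratio of 1.16. Its 95% intervals lay between -0.34 and 0.29 in the 7 comparisons other than the difference of vector effects, where the interval was -0.42 to 0.12.

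Among the nucleoside enzymes, Nmrk1 and Nt5e had wide spreads between mice. Nmrk1, the riboside kinase, was at 10.5, 12.5 and 8.24 CPM in chow WT EV, ran from 7.21 through 9.92 to 16.2 in WD WT EV and from 12.9 through 16.2 to 20.6 in WD WT NAMPT. In WD LKO EV it was at 10.7, 10.9, 12.9, 14.3 and 18.6, and in WD LKO NAMPT at 21.6, 26.6, 23.2, 9.35 and 13.1. Of the 6 WT vector libraries, 3 (libraries 1, 5 and 6) lay above every WD WT EV library, and in LKO the vector libraries 1, 2 and 3 lay above every LKO EV library while 4 and 5 did not.

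Nmrk1 differed with the vector by 0.66 ± 0.23 in WT (fold 1.58, 0.18 to 1.13, adjusted p = 0.0577) and 0.44 ± 0.22 in LKO (-0.01 to 0.90, adjusted p = 0.534), and by 0.55 ± 0.16 on average (adjusted p = 0.0599). The LKO difference ran from 0.05, without library 2 of WD LKO NAMPT, to 0.69, without library 4 of that group. None of these passed the threshold in the limma fit. Other settings called Nmrk1 higher with the vector in WT in 6 of 14 cases, with adjusted p down to 0.0218 and log2 differences of 0.40 to 0.95 over all 14, DESeq2 (adjusted p = 0.0414) and edgeR's exact test (adjusted p = 0.0388) among those that did. They called the average in 4 of 13 cases (0.41 to 0.74). The WT difference passed without library 7 of WD WT EV (0.76, adjusted p = 0.0423), and the average passed without library 4 of WD LKO NAMPT (0.68, adjusted p = 0.0223) or library 6 of WD WT NAMPT (0.54, adjusted p = 0.049). Over the 22 fits that left out 1 library the average ran from 0.35 to 0.68, with adjusted p up to 0.181.

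Nt5e spread widest of the 10 in WD WT EV, from 4.94 through 10.9 to 21.9 CPM, and kept to between 5.16 and 8.55 in WD WT NAMPT. Libraries 1 and 4 of WD WT EV, at 19.6 and 21.9, were above all others. The vector difference was -0.58 ± 0.26 in WT (adjusted p = 0.13), and it passed without library 8 of WD WT EV (-0.79, adjusted p = 0.035) and with DESeq2 (-0.86, adjusted p = 0.0242). For Nt5e, diet gave 0.40 ± 0.27 (-0.16 to 0.97, adjusted p = 0.303), which was 1.09 with the clock score as covariate (adjusted p = 0.0513) and ran from 0.22 (without library 1 of WD WT EV) to 0.71 (without chow library 2, adjusted p = 0.358) when 1 library was left out. In WD LKO NAMPT Nt5e was at 11.4, 8.91, 12.6, 11.3 and 9.30 CPM, which did not overlap WD WT NAMPT (1.39% of all genes did not), although the fitted difference of 0.41 ± 0.27 had an adjusted p of 0.329.

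Pnp, the purine nucleoside phosphorylase, had the largest diet difference, read from the row described above. It was at 110, 109 and 76.6 CPM in chow WT EV and ran from 53.2 through 58.6 to 68.4 in WD WT EV, so that even the lowest chow library was above every WD library of that group. Pnp fell by 0.80 on the log2 scale (SE 0.13, fold 0.576, 95% confidence interval -1.06 to -0.53, adjusted p = 9.71e-05), and this call stood in all 9 fits that left out a library (-0.87 to -0.60). Among the WD groups its means lay between 53.6 and 59.2 CPM, and neighbours did not differ beyond their spread. In WD LKO NAMPT the 5 values were wide apart, at 44.1, 55.2, 31.9, 67.9 and 68.6.

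In the limma fit the NAD kinases moved in opposite directions with diet. Nadk was at 173, 173 and 186 CPM in chow WT EV and ran from 190 through 232 to 275 in WD WT EV, a rise of 0.38 ± 0.08 (fold 1.30, adjusted p = 0.00146). Without chow library 1 or 2 it was 0.34 in each case (adjusted p = 0.0615 and 0.0827). Its level in WD WT NAMPT, 187 through 211 to 236, differed from WD WT EV by -0.08 ± 0.08 (adjusted p = 0.512). This value ran from -0.13 to -0.03 when 1 library was left out and from -0.24 to 0.07 in other settings. In WD LKO NAMPT Nadk was at 234, 259, 285, 232 and 265 CPM, 0.24 ± 0.08 above WD WT NAMPT (adjusted p = 0.0705). That difference in Nadk passed with DESeq2 (0.29, adjusted p = 0.046), 1 of 14 other settings, and without library 1 (0.26, adjusted p = 0.0453) or 4 (0.28, adjusted p = 0.0423) of WD LKO NAMPT.

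Nadk2, the mitochondrial kinase, was at 181, 192 and 175.5 CPM in chow WT EV and ran from 125 through 151 to 173 in WD WT EV, a fall of 0.30 on the log2 scale (SE 0.10, adjusted p = 0.0281). In WD WT NAMPT it ran from 86.3 through 115 to 155 and fell by a further 0.36 (SE 0.09, fold 0.778, adjusted p = 0.0158), the lowest group of the 5. In WD LKO EV it was at 133, 140, 138, 167 and 156 CPM and in WD LKO NAMPT at 127, 163, 171, 159 and 173, a difference of 0.14 ± 0.10 (-0.05 to 0.34, adjusted p = 0.668). Under the vector Nadk2 was 0.45 ± 0.10 higher in LKO than in WT (fold 1.37, adjusted p = 0.0167), and the difference between the 2 vector effects was 0.51 ± 0.13 (0.23 to 0.78, adjusted p = 0.0745).

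The 3 calls on Nadk2 each lost significance without some libraries. The vector call in WT was lost without library 2 of WD WT EV (-0.34, adjusted p = 0.0609) or library 3 of WD WT NAMPT (-0.31, adjusted p = 0.0819). The LKO against WT call was lost without library 2 or 3 of WD WT NAMPT (0.38 and 0.39) or library 2 or 5 of WD LKO NAMPT (0.43 and 0.40). The diet call was lost without chow library 1 or 2 (-0.28 and -0.24) or library 1 or 4 of WD WT EV (-0.25 and -0.28). Of the 13 other settings, 7 dropped the Nadk2 diet call, DESeq2 (-0.26, adjusted p = 0.244) and edgeR's quasi-likelihood test (-0.27, adjusted p = 0.241) among them, with log2 differences of -0.58 to -0.12 over all 13. The vector call on Nadk2 in WT stood in 7 of 14 settings (-0.43 to -0.11) and the LKO against WT call in 8 of 14 (0.25 to 0.45). The difference of the vector effects passed without library 1 of WD LKO NAMPT (0.55) or library 5 or 6 of WD WT NAMPT (0.57 and 0.55).

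Nadk2 followed the macrophage markers closely. After subtracting group means, its log2 level had Pearson's r of -0.92 and Spearman's rho of -0.91 with the log2 marker sum over the 25 libraries (permutation test within groups, 100000 resamples, two-sided, p = 1e-05 for r, the smallest they can give, adjusted over all 14065 genes to 0.000517). Of the 10 genes 1 passed, where 24.7% of all genes did (2 of the 10 and 37.1% at an unadjusted p under 0.05). Without the 2 libraries farthest from the median of the marker sum (library 6 of WD WT NAMPT and library 1 of WD LKO NAMPT), r was -0.89. Of the 14065 genes tested, 1 had an r this low or lower, Nadk2 itself. Within WD WT NAMPT, libraries 1 to 6 held 102, 86.3, 111, 120, 137 and 155 CPM of Nadk2 beside marker sums of 382, 465, 333, 220, 149 and 66.0. The relation was chosen for a test after the values were seen.

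The marker sum moved with the vector in WT. It ran from 60.2 through 97.0 to 136 CPM in WD WT EV and from 66.0 through 277 to 465 in WD WT NAMPT, and 4 of its 6 genes were called higher (7.67% of all genes were). Of the neutrophil markers 2 of the 4 tested were called higher, with sums of 2.81 to 8.25 CPM in WD WT EV and 3.66 to 28.6 in WD WT NAMPT. Of the Kupffer cell markers 2 of 5 were called higher (sums of 230 to 338 and 216 to 593) and of the stellate cell markers 4 of 5 (99.9 to 164 and 98.2 to 281), and the ranges of these sums overlapped. Of the 6 hepatocyte markers 1, Cyp2e1, fell. With a macrophage score as covariate the vector difference of Nadk2 in WT was -0.11 (adjusted p = 0.514), that of LKO against WT under NAMPT was 0.27 (adjusted p = 0.0593) and the diet difference was -0.12 (adjusted p = 0.221). The 3 WD WT NAMPT libraries of highest sum also held the lowest Nadk2 of that group (102, 86.3 and 111 CPM). A smaller Nadk2 difference without them was therefore fixed by how they were picked. Without them Nadk2 differed by 0.25 between LKO and WT under NAMPT (adjusted p = 0.164). Against WD WT EV, with 3 libraries left in the group, it differed by -0.17 (adjusted p = 0.343). Nampt then differed by 0.23 (adjusted p = 0.464) and Nmrk1 by 0.84 (adjusted p = 0.15), and 0 of the 10 and 0 genes in all were called for the vector in WT (2263 genes at an unadjusted p under 0.05). T cell, B cell and cholangiocyte markers gave 0 calls, and endothelial markers 1 higher and 1 lower of 5. The part of other cell types in the Nadk2 difference was not tested beyond these values. Of the other 9 genes, Naprt had the next relation with the markers, r of -0.55 (adjusted p = 0.0854) and rho of -0.62 (adjusted p = 0.0408), followed by Nmnat1 with r of -0.50 (adjusted p = 0.18, permutation test). An r as low as these was found in 11.3% and 14.3% of all genes.

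**Figure D3:**
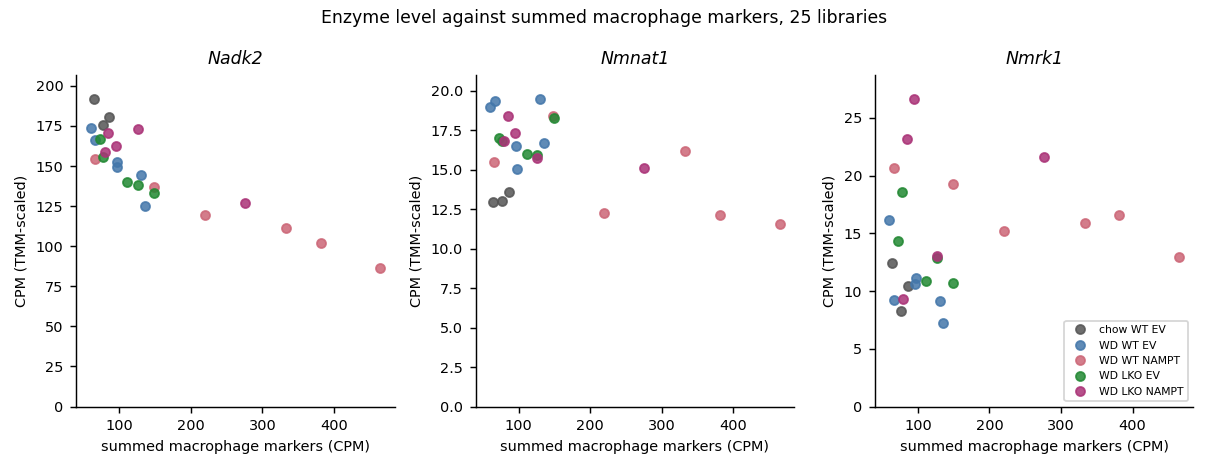
TMM-scaled CPM of Nadk2, Nmnat1 and Nmrk1 (vertical axes) against the summed CPM of 6 monocyte and macrophage markers (horizontal axis), 1 point per library, coloured by group. Nadk2 falls from left to right in all groups together, with the WD WT NAMPT libraries spread from 66.0 to 465 CPM of markers.

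Clock genes moved with diet in the same libraries. A clock score, the mean of z-scored log2 CPM of 14 clock genes with Arntl, Clock, Npas2 and Cry1 counted negatively, ran from -1.98 to -1.26 in chow WT EV and from -0.62 to 0.83 in WD WT EV without overlap, and 10 of the 14 genes were called (22% of all genes were), 6 higher (Nr1d2, Nr1d1 and Tef among them) and 4 lower (Arntl among them). With the vector in WT 4 of the 14 were called lower (5.77% of all genes were, 13.4% in both directions), Arntl by 1.99, Npas2 by 1.98, Hlf by 0.48 and Clock by 0.43 on the log2 scale. The times at which livers were taken are not given in the sources used here. With the score as covariate the diet difference of Pnp was -0.50 (adjusted p = 0.029), of Nadk 0.52 (adjusted p = 0.00442) and of Nadk2 -0.58 (adjusted p = 0.0043). Nmnat1 then lost its call at 0.32 (adjusted p = 0.139), Nmrk1 gained one at -1.03 (adjusted p = 0.0098), and Nampt turned from 0.28 to -0.17 (adjusted p = 0.615). The scores of the diets do not overlap, so diet and clock state cannot be told apart here, and the part of the clock in the diet differences was not tested.

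Within groups, 1 of the 10 genes was related to the score past the threshold, where 3.51% of all genes were (permutation test within groups, 100000 resamples, two-sided, adjusted over all 14065 genes). Nmrk1 had r of 0.70 and rho of 0.71 (adjusted p = 0.0188 and 0.03), and 0.903% of all genes had an r as high. At an unadjusted p under 0.05 there were 7 of the 10, against 22.2% of all genes. Pnp had r of -0.54 and rho of -0.62 (adjusted p = 0.0682 and 0.06), with 4.71% of genes as low, and Nadk2 had r of 0.53 (adjusted p = 0.109), with 4.74% as high. Nampt, whose transcription is a known output of the clock, had r of 0.51 and rho of 0.53 (adjusted p = 0.139 and 0.147), with 5.39% as high. Without the 2 libraries farthest from the median of the score (library 1 of WD LKO EV and library 5 of WD LKO NAMPT), r was 0.67 for Nmrk1, -0.49 for Pnp, 0.60 for Nadk2 and 0.40 for Nampt. These relations too were chosen after the values were seen, 20 in all with those to the macrophage markers.

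**Figure D4:**
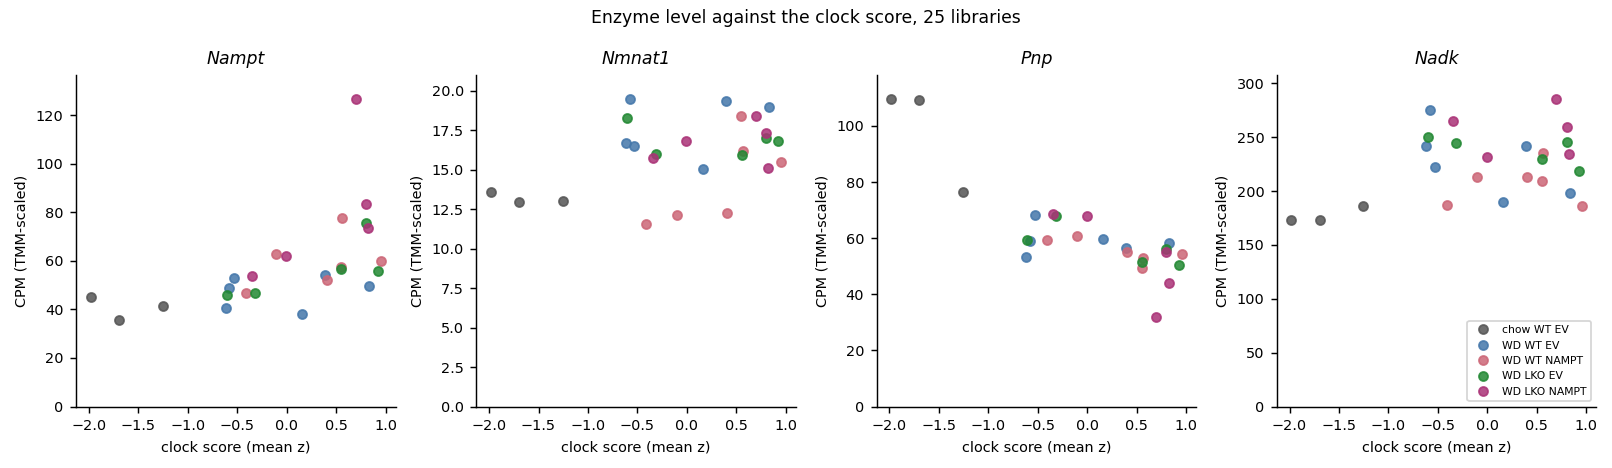
TMM-scaled CPM of Nampt, Nmnat1, Pnp and Nadk (vertical axes) against the clock score (horizontal axis, mean of z-scores), 1 point per library, coloured by group. The 3 chow libraries lie apart at scores of -1.98 to -1.26, where Pnp is high and Nmnat1 and Nadk are low.

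Whether pairs of the 10 genes passed as varying together depended on how libraries were permuted. Of 45 pairs, 6 passed an adjusted p of 0.05 when libraries were permuted freely (12 at an unadjusted p under 0.05), and 0 passed when they were permuted within groups, an alternative added after the values were seen that keeps each group's own spread. The highest r were 0.69 for Nt5e with Nadk (rho 0.52, adjusted p = 0.00787 free and 0.105 within groups, permutation tests) and 0.66 for Naprt with Nadk2 (rho 0.61, adjusted p = 0.00787 and 0.105, permutation tests). Without the 2 farthest libraries these were 0.48 and 0.48. The most negative was Nampt with Pnp, r of -0.59 (rho -0.34, adjusted p = 0.0281 and 0.195, permutation tests), which dropped to -0.24 without libraries 3 and 5 of WD LKO NAMPT and so rested on them.

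Genes outside the list with the most similar profile over the 25 libraries were found by Pearson's r of log2 CPM, as a description. For Nadk2 these were Sod2 (0.95), Phyh (0.93) and Acsl1 (0.93), for Nadk they were Slc22a29 (0.91), Slc16a7 (0.90) and Slc22a27 (0.89), and for Naprt they were Pex6 (0.90), Sirt3 (0.87) and Faah (0.87). Nmnat1 was closest to Pcsk6 (0.90), Fitm1 (0.88) and Olig1 (0.87), Nampt to Mcl1 (0.82), Ankrd12 (0.78) and Snx2 (0.77), and Pnp to Rab36 (0.85) and Ddc (0.83). Nmrk1 was closest to Coq10b (0.84), Wee1 (0.78) and Nrg4 (0.76), Nt5e to Aplp2 (0.82), Entpd5 (0.80) and Kdsr (0.79), Nmnat3 to Trappc6a (0.78), Prdx5 (0.75) and Epm2a (0.73), and Nadsyn1 to 1700037C18Rik (0.73), Anxa6 (0.71) and Gpr17 (0.71). These libraries share group, clock and cell-marker differences.

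Genes of the neighbouring NAD pathways were counted from 3 lists. With the vector in WT, 2 of 12 other precursor and NAD(P) handling genes were called (13.4% of all genes were), Noct, a phosphatase that removes the phosphate of NADP, at 1.41 ± 0.36 (adjusted p = 0.0158), and Slc29a1, a nucleoside transporter, at -0.70 ± 0.15 (adjusted p = 0.0109). Of 11 de novo pathway genes tested, 1 rose, Acmsd, which diverts an intermediate of tryptophan breakdown away from NAD, at 1.06 ± 0.30 (adjusted p = 0.0245), and 3 fell, Kmo, Ido2 and Kynu, between -0.54 and -0.33. Of 20 NAD consumers and nicotinamide-clearing genes 1 rose, Parp14, at 0.74 ± 0.18 (adjusted p = 0.0134). Without libraries 1, 2 and 3 of WD WT NAMPT, which had the highest macrophage marker sums, the group held 3 libraries and 0 genes in all were called. The log2 differences were then 0.97 for Noct, -0.56 for Slc29a1, 0.19 for Acmsd, -0.27 for Kmo, -0.23 for Ido2, -0.29 for Kynu and 0.16 for Parp14.

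With diet, where 22% of all genes were called, 1 of the 12 other handling genes rose, Nnt, the mitochondrial transhydrogenase, at 0.82 ± 0.19 (adjusted p = 0.00375). The 3 chow libraries held 64.0, 64.1 and 122 CPM of Nnt, the last within the range of WD WT EV, 90.6 to 146. De novo genes fell in 3 of 11 cases, Acmsd by 1.81, Afmid by 0.88 and Kynu by 0.31 on the log2 scale. Among the 20 consumers and clearing genes Aox3 fell by 0.94 and Nnmt, which methylates nicotinamide, by 0.87, and Parp3 rose by 0.43 (adjusted p = 0.0223). For LKO against WT under NAMPT, where 7.96% of all genes were called, Nudt12 (0.46 ± 0.13, adjusted p = 0.0348) and Kmo (0.41 ± 0.12, adjusted p = 0.0448) were higher, and 0 of the 20 consumers were called. Averaged over genotypes the vector changed Slc29a1 (-0.53) and Parp14 (0.57), where 1.79% of all genes were called. In the other 4 comparisons 0 genes of the 3 lists were called, where 0.242% of all genes were for the label averaged over vectors and 0.00711% in each of the other 3.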

How the data were processed

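Total RNA of mouse liver was read as single-end, poly-A-selected libraries. Per the labels, the authors aligned reads to GRCm38 with STAR 2.5.1a and counted them per gene with featureCounts 1.4.6-p5. The deposited files give counts per gene, and the deposited CPM (scaled to library total) and RPKM (the same per kilobase of exon) could be recomputed from them. The counts were the values tested here. The row read as Pnp carries an older Ensembl identifier and was matched by its exons (77.5% of the exonic bases of Pnp in GENCODE M21, 0 shared with the Pnp2 row). GENCODE M21 names that identifier Gm49342, and 143 of the row's 3085 bases lie past the end of Pnp in RefSeq. No gene shared exonic bases with another row.

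CPM and RPKM printed here use TMM factors (edgeR 4.0.16, R 4.3.3). Following the study's methods, 4 rRNA genes and genes without more than 1 CPM in at least 2 libraries were left out. As in those methods, differences were fitted with limma 3.58.1 (voomWithQualityWeights), here on all 25 libraries with 1 mean per group. The study's figure legend for these data names edgeR's exact test and 3 mice in each group shown. P-values were adjusted by Benjamini-Hochberg over the 14065 genes and called at 0.05 or less. Correlations used log2(CPM + 0.5) with permutation tests, adjusted over all genes for relations with a score and over 45 pairs for pairs of the 10. Alternatives were edgeR, DESeq2 1.42.0, sva 3.50.0, other scalings, filters and covariates, and leaving out each library. The fits were tested on simulated data. The genes and lists were chosen with earlier results of these data known. Every gene of the list is named, and of other lists those with the smallest p in a comparison. The 3 genes most like each in profile are given, except 1 that is not reported here. Mice are 1 library each, so the p-values of the fits weigh group differences against the spread between mice, with sample quality weights in the limma fit.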

Additional observations from a re-analysis of the deposited data

How the results depend on the processing

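Counts of the 10 genes called moved with the tool (the share of all genes called in the same fit follows in brackets), and leaving out the libraries of highest macrophage marker sum, the macrophage score and permutation within groups were added after the data were seen. For the vector in WT (2 called, 13.4%), edgeR's quasi-likelihood test (3.04%), limma without quality weights (1.37%), 2 surrogate variables (0.469%), the macrophage score (0.142%) and leaving out libraries 1, 2 and 3 of WD WT NAMPT (0%) each called 0, and edgeR's exact test (2.25%), no filter (1.8%) and the groups compared alone (4.64%) each called 1. There the clock score (20.2%), library size alone (16.2%) and DESeq2 (8.49%) each called 3. For the averaged vector effect (0 called, 1.79%), DESeq2 (3.01%) and library size alone (3.76%) each called 2, and the clock score (8.43%) and the macrophage score (0.185%) each called 1. For LKO against WT under NAMPT (1 called, 7.96%), DESeq2 called 2 (2.09%), and the quasi-likelihood (0.32%) and exact (0.519%) tests, no quality weights (0.27%), the groups compared alone (0.0853%), the macrophage score (0.199%) and leaving out the 3 libraries (0.199%) each called 0. The clock score gave 1 call (3.8%) in the difference of vector effects (0 called, 0.00711%). For diet (4 called, 22%), edgeR's exact test called 2 (12.1%) and a replicate block called 5 (27.3%). DESeq2 (12.4%), the quasi-likelihood test (9.4%), no quality weights (8.54%), no filter (6.77%), 2 surrogate variables (23.5%) and the macrophage score (20.3%) each called 3. Pairs passing fell from 6 to 1 with library size alone and to 0 with permutation within groups. The cause of these moves was not tested.

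Leaving out each library gave 0 to 3 calls for the vector in WT, 0 to 2 for the averaged vector effect, 0 to 2 for LKO against WT under NAMPT, 0 to 1 for the difference of vector effects, 1 to 4 for diet, 0 to 0 for the other 3 comparisons and 1 to 8 pairs. The share of all genes called in each of these fits is not given here. A change in the calls of a comparison therefore cannot be told from a change in the number of genes called in all. Nampt reversed with the clock score for diet (-0.17), and its difference of vector effects, 0.08, reversed with library size alone (-0.091), 2 surrogate variables (-0.015), and without library 4 of WD WT NAMPT (-0.087) or library 2 (-0.044) or 3 (-0.0099) of WD LKO NAMPT, within -0.087 to 0.20 over the fits leaving out a library. All genes called ranged from 0 to 2838 for the vector in WT and from 1201 to 3842 for diet over the alternatives, and Pnp kept its diet call in all 13 of them.

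Same-numbered libraries correlated between -0.34 and 0.38 after group means were subtracted. Whether the numbers pair the mice was not tested. With a replicate block, Nt5e gave the 1 call in the averaged vector effect (1.71% of all genes) and the 1 call in the difference of vector effects (0.469%), and 3 of the 10 were called for the vector in WT (6.29%). Under that block Nt5e was at -1.21 (adjusted p = 0.00161) for the vector in WT and at 1.01 (adjusted p = 0.00136) for diet, against -0.58 and 0.40 without it.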
